A study of Homo sapiens with 12 samples.

Results

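The 10 mucin genes described here were matched by symbol to the Ensembl identifiers of a count table of 60671 genes, and all 10 were found. The 4 gel-forming members are MUC2, MUC5AC, MUC5B and MUC6. The 6 transmembrane members are MUC1, MUC4, MUC12, MUC13, MUC17 and MUC20. Mucins are large glycoproteins whose protein backbone carries dense O-linked sugar chains. Gel-forming mucins are secreted, joined into polymers by disulfide bonds, and make up mucus. Transmembrane mucins stay anchored in the apical membrane of epithelial cells, where they form part of the glycocalyx and many are cleaved outside the membrane. In the colon, goblet cells secrete MUC2, while absorptive cells carry several transmembrane mucins on their surface.

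The genes were measured by mRNA sequencing in LS180, an established line of human colorectal cancer cells. Each of 3 derivative lines carries a doxycycline-inducible construct, for V5-tagged wild-type SOX9, for V5-tagged mutant SOX9 named M303 (a truncated form), or for GFP, the control. The transcription factor SOX9 is known from intestinal stem cells and Paneth cells. There were 6 groups of 2 libraries, listed as SOX9 with and without doxycycline, M303 with and without, and GFP with and without, where doxycycline was given at 0.5 µg/ml for 24 h. Every group shares the LS180 background and carries a construct, so no group is the parental line. Each construct sits in a line of its own, so construct and line cannot be told apart between lines. The labels call the libraries of a group duplicates and do not say whether the cultures were separate. Each p-value is therefore measured against the spread of these duplicates, part or all of which may be technical.

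Libraries held 31012775 to 48529770 counts, and the libraries of each group differed beyond counting noise. As a check of the labels, SOX9 itself stood at 736 ± 34.7 CPM (read counts scaled to a common library total) with and 369 ± 16.8 CPM without doxycycline in the SOX9 line (SD, n = 2 each). It stood at 843 ± 34.4 CPM with and 383 ± 22.7 CPM without doxycycline in the M303 line, and at 388 ± 24.0 CPM with and 396 ± 4.63 CPM without it in the GFP line. This count pools endogenous and construct transcripts. All 10 intestinal epithelial marker genes averaged at least 1 CPM, and their sum ran from 10670 to 13090 CPM over the 12 libraries. The sum of 7 fibroblast markers was at most 2.92 CPM and that of 4 endothelial markers at most 0.460 CPM. Of the 6 blood and immune markers, 5 summed to at most 4.21 CPM. The sixth, LYZ, which Paneth cells also make, stood at 584 ± 7.99 CPM with and 51.8 ± 6.90 CPM without doxycycline in the SOX9 line.

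The mucin genes lie in 3 clusters and at 2 single sites of GRCh38 (coordinates of the Ensembl annotation used for counting). The gel-forming genes share 249.4 kb of chromosome 11. MUC6 (ENSG00000184956, 1012823 to 1036718) is on the minus strand. MUC2 (ENSG00000198788, 1074875 to 1110511), MUC5AC (ENSG00000215182, 1157953 to 1201138) and MUC5B (ENSG00000117983, 1223066 to 1262172) follow on the plus strand. On chromosome 7, MUC12 (ENSG00000205277, 100969623 to 101018949) and MUC17 (ENSG00000169876, 101020072 to 101058859) are on the plus strand with a gap of 1.12 kb. On chromosome 3, MUC20 (ENSG00000176945, 195720884 to 195741123, plus strand) and MUC4 (ENSG00000145113, 195746765 to 195811973, minus strand) are 5.64 kb apart. MUC13 (ENSG00000173702, 124905442 to 124953819, minus strand) lies elsewhere on chromosome 3, and MUC1 (ENSG00000185499, 155185824 to 155192916, minus strand) on chromosome 1.

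Mucin exons contain tandem repeats, which bear on these counts because the recorded counting command did not count reads that align to several places. In the longest GENCODE 29 transcript of each gene, the share of 150-base windows that occur more than once was 39.8% for MUC12, 24.3% for MUC1, 13.6% for MUC20, 12.4% for MUC5B, 10.5% for MUC4, 7.5% for MUC2 and 5.2% for MUC5AC. It was 0.0% for MUC6, MUC13 and MUC17. Only exact copies were counted, and other genes were searched only where their symbol begins with MUC. A share of 0.0% therefore does not show that no reads were lost. Of the MUC20 windows, 46.9% also occur in the related loci MUC20-OT1 and MUC20P1, and 27.1% of the annotated MUC20 exon bases overlap another gene, so the level of MUC20 is uncertain. GENCODE marks the MUC2 gene as touched by a reference genome error, and its longest transcript is a processed transcript with no coding sequence annotated. A copy pair of the tandem repeat is shown for MUC2, a gene the results turn on, and for MUC20, where both copies are identical. Both are read from the GRCh38 transcripts, 5′ to 3′ on the gene's strand, with the first copy in capitals. The MUC2 pair lies in exon 30 at chr11:1097102-1097239 (plus strand) and has a period of 69 bases. The MUC20 pair lies in exon 1 at chr3:195725148-195725261 (plus strand) and has a period of 57 bases.
MUC2 repeat: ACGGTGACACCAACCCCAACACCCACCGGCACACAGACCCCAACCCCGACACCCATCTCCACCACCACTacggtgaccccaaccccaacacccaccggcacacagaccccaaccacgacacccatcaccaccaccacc
MUC20 repeat: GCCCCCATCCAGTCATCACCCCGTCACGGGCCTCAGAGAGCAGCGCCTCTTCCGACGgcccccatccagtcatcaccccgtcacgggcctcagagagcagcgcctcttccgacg

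Levels of different genes were compared as CPM per kilobase of annotated exon. The order is given over the 10 libraries other than induced SOX9. MUC13, a transmembrane mucin of the intestinal surface, was highest, with a median of 98.1 CPM per kilobase. MUC6, a gel-forming mucin known from gastric glands, came next with 29.7. MUC5B, known from airway and salivary mucus, had 5.86, MUC5AC, known from gastric surface and airway mucus, 5.43, and MUC2, the main mucin of colonic mucus, 5.40. The ranges of MUC5B, MUC5AC and MUC2 overlapped, so their order among themselves is not resolved. MUC17, a transmembrane mucin of the enterocyte brush border, had 2.38 and MUC20, which binds the MET receptor, 1.07. The 3 lowest were MUC12, a transmembrane mucin of the colon, with 0.0823, MUC1, a widely expressed transmembrane mucin, with 0.0359, and MUC4, which binds ERBB2, with 0.0248 CPM per kilobase. The ranges of MUC1 and MUC4 overlapped. MUC1 had 0 to 9 counts in each of these 10 libraries and MUC4 11 to 43.

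**Figure D1:**
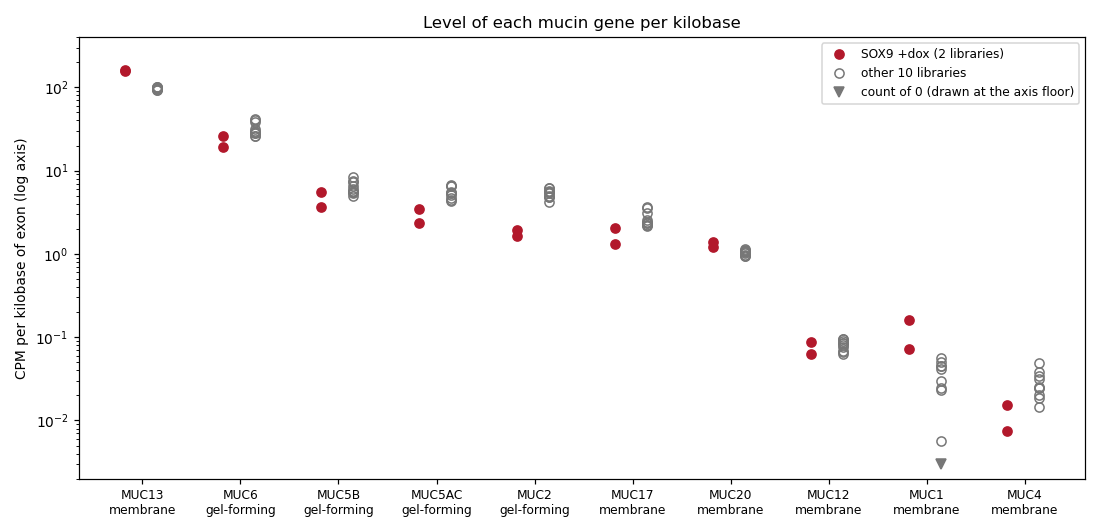
Level of each mucin gene in CPM per kilobase of exon (log axis), with 1 point per library. Filled points are the 2 induced SOX9 libraries and open points the other 10; MUC13 is highest and its 2 induced SOX9 points lie above the other 10, while those of MUC2 lie below.

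The first comparison sets the SOX9 line with doxycycline against the same line without it. With wild-type SOX9 induced, MUC2 fell 2.91-fold and MUC13 rose 1.66-fold. Of the 4 gel-forming genes 1 fell and 0 rose, and of the 6 transmembrane genes 1 rose and 0 fell. Over all 18219 genes tested, 2.97% were called at an adjusted p under 0.05, 1.16% lower and 1.81% higher. The median log2 fold change was -0.54 over the gel-forming genes, beside 0.0059 over all genes tested. Over the transmembrane genes it was 0.16 with all 6 and -0.03 without MUC1, so its sign rests on that gene. All 10 members passed the filter on low counts, which asked for about 0.277 CPM in 2 libraries. MUC1 passed it only through the 2 induced SOX9 libraries, where it was highest, so its place among the tested genes depends on its own level there. In bulk RNA, fewer cells that make a mucin and less mucin RNA per cell cannot be told apart.

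Among the gel-forming genes, MUC2 had 20.7 and 24.8 CPM in the SOX9 line with doxycycline, against 62.7 and 69.3 CPM without it. Both induced SOX9 libraries were below all other 10, whose lowest value was 53.1 CPM and highest 78.6 CPM. The log2 fold change was -1.54 (SE 0.14, 95% interval -1.83 to -1.25), with an edgeR adjusted p of 1.53e-06. The call remained when any single library was left out, with an adjusted p of at most 1.21e-04.

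MUC5AC had 40.7 and 60.4 CPM with doxycycline, against 77.0 and 95.5 CPM without it in the SOX9 line. The groups did not overlap, and both induced SOX9 libraries were below the lowest of the other 10, 75.2 CPM. The log2 fold change was -0.78 (SE 0.29, 95% interval -1.46 to -0.09) and did not pass the test over all genes (edgeR adjusted p = 0.295). It passed only when the fit held the groups compared alone (adjusted p = 0.0334).

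MUC5B had 68.9 and 104 CPM with doxycycline, against 92.6 and 112 CPM without it, and the groups overlapped. Its log2 fold change was -0.24 (SE 0.27, edgeR adjusted p = 0.799). MUC6 had 163 and 222 CPM with doxycycline, against 223 and 249 CPM without it. The MUC6 groups barely separated, with a log2 difference of -0.30 (SE 0.28, 95% interval -0.96 to 0.37, adjusted p = 0.752). The intervals of MUC5B and MUC6 therefore reach from a decrease of more than 0.8 to an increase of more than 0.3 on the log2 scale.

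Among the transmembrane genes, MUC13 had 570 and 552 CPM in the SOX9 line with doxycycline, against 352 and 324 CPM without it. Both induced SOX9 libraries were above all other 10, which lay between 324 and 357 CPM. The log2 fold change was 0.73 (SE 0.07, 95% interval 0.59 to 0.87), with an edgeR adjusted p of 6.72e-07. Leaving out any single library kept the call, with an adjusted p of at most 4.41e-05.

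MUC17 had 19.3 and 29.8 CPM with doxycycline, against 32.0 and 32.6 CPM without it. These groups did not overlap, but the spread within groups elsewhere was wide, and the log2 fold change of -0.40 (SE 0.28) was not called (edgeR adjusted p = 0.622). MUC20 had 9.41 and 8.23 CPM with doxycycline, against 6.61 and 7.24 CPM without it. Both induced SOX9 libraries exceeded the highest of the other 10, 7.83 CPM, but the log2 difference of 0.35 (SE 0.17, adjusted p = 0.376) was also not called. MUC12 had 1.48 and 1.07 CPM with doxycycline, against 1.15 and 1.46 CPM without it, and the log2 fold change was -0.03 (SE 0.40, adjusted p = 0.988).

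The 2 rarest members were near the limit of what these libraries can count. MUC1 had 17 and 24 counts in the SOX9 line with doxycycline, against 9 and 7 counts without it. In the M303 and GFP lines it had 0 to 8 counts. Its log2 fold change of 1.30 had an SE of 1.18 (edgeR adjusted p = 0.720). MUC4 had 16 and 5 counts with doxycycline, against 16 and 14 counts without it, which gave -0.73 on the log2 scale (SE 0.73, adjusted p = 0.757). The 95% interval ran from -1.16 to 3.76 for MUC1 and from -2.25 to 0.79 for MUC4. These wide intervals hold a several-fold rise of MUC1 and a several-fold fall of MUC4.

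**Figure D2:**
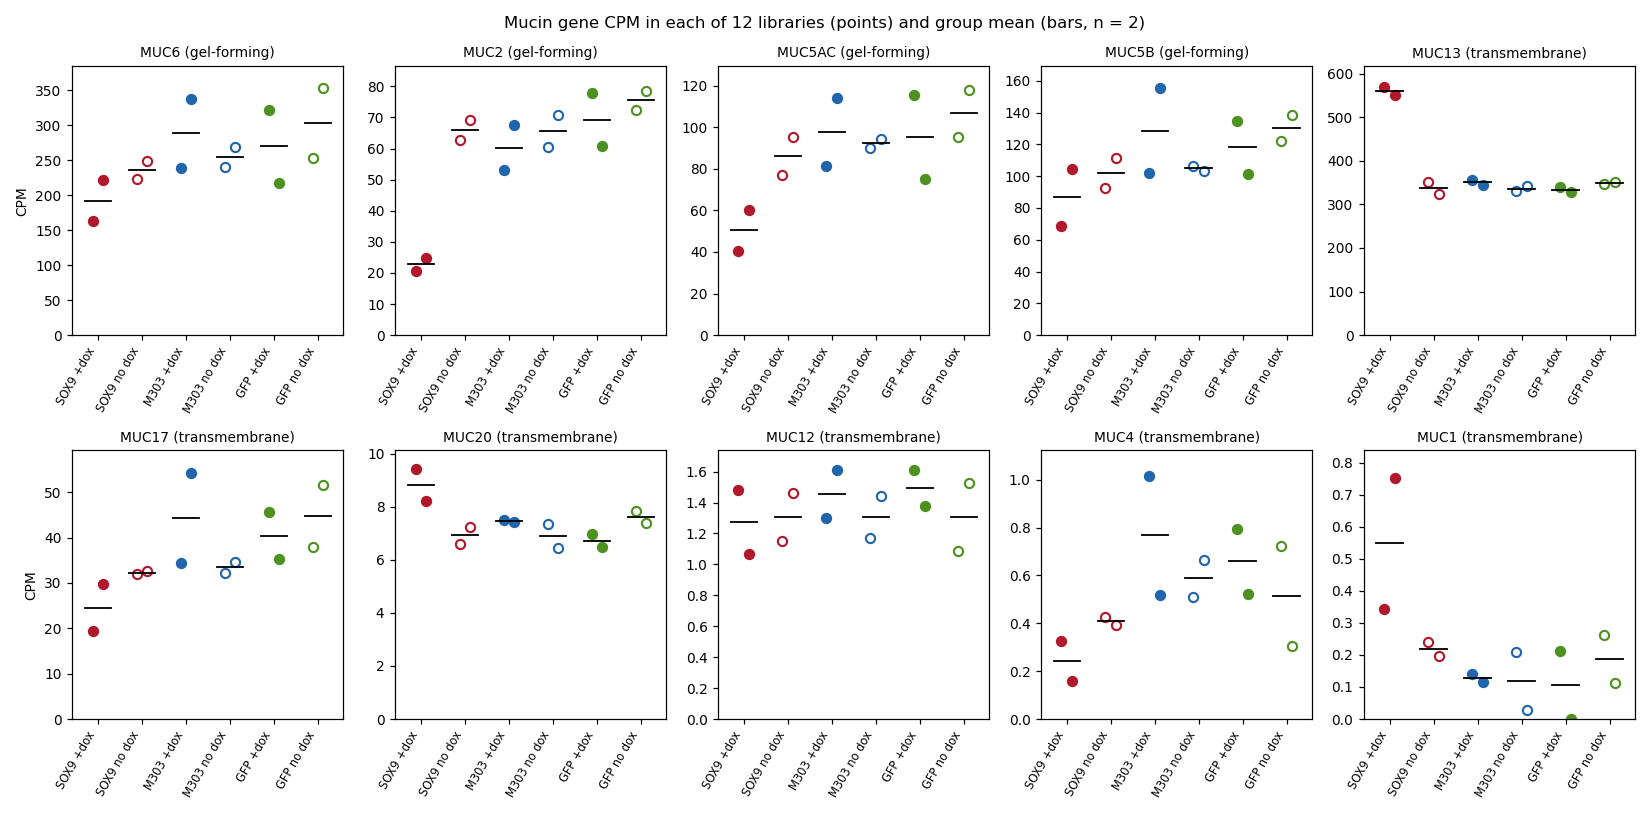
CPM of the 10 mucin genes in each of 12 libraries, by line and doxycycline (filled points with, open points without), with black bars for the mean of 2 libraries. MUC2 is lowest and MUC13 highest in the SOX9 line with doxycycline, and MUC6, MUC5AC, MUC5B and MUC17 spread widely between libraries of a group.

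Since MUC2 and MUC13 carry the calls, the sequence before the start of each is shown from the RefSeq promoter table (GRCh38.p14), 250 bases long, 5′ to 3′ on the gene's strand. The table also held MUC1, MUC4, MUC12 and MUC17, which makes 6 of the 10 members, and did not match MUC5AC, MUC5B, MUC6 or MUC20. Motifs were searched on both strands. For SOX factors the letters were ACAAT, for CDX factors TTTAT and for GATA factors GATAA. The cyclic AMP response element was TGACGTCA, and TATAA stood for the TATA box. TTTAT and TATAA can overlap. Capitals mark every match. The MUC2 window is chr11:1074624-1074873 (plus strand). The MUC13 window is chr3:124934752-124935001 (minus strand) and belongs to a RefSeq start inside the MUC13 gene as Ensembl draws it.
MUC2 promoter: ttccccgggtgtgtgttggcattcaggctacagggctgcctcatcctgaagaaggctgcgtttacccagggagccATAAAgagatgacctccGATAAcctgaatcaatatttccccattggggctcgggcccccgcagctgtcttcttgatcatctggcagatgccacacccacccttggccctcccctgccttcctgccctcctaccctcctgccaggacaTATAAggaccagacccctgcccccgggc
MUC13 promoter: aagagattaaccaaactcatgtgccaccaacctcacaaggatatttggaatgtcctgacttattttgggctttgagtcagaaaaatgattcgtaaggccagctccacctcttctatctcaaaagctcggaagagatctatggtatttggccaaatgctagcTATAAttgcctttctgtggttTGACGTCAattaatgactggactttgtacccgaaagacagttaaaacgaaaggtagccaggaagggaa

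In the MUC2 window the CDX motif, on the opposite strand, began 175 bases before the start, the GATA motif 158 bases and the TATA box 28 bases. In the MUC13 window TATAA began 89 bases and TGACGTCA 68 bases before it. Of 27305 RefSeq promoter windows of this length, 33.7% held TTTAT, 21.0% GATAA, 19.6% TATAA and 1.8% TGACGTCA. ACAAT was in 25.2% of them and in 0 of the windows of the 6 matched members. A match describes the letters only, and no binding was measured here.

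The next comparisons ask whether the same genes responded to the truncated form or to the control. Inducing M303 or GFP called 0 of the 10 mucin genes. Over all genes tested 0.00549% were called for M303 and 0.0% for GFP, so few calls of any gene were made there. At an unadjusted p under 0.05 there were 662 genes for M303 and 580 for GFP, of 18219 tested, with 0 of the 10 mucins among either. At such shares few of any 10 genes would be among them. DESeq2 called 2 genes in each. MUC2 had 53.1 and 67.4 CPM in the M303 line with doxycycline, against 60.5 and 70.9 CPM without it. In the GFP line it had 77.9 and 60.7 CPM with doxycycline, against 72.5 and 78.6 CPM without it. The groups overlapped in both lines, and the log2 fold change was -0.13 (SE 0.13) in each, with 95% intervals of -0.41 to 0.15 for M303 and -0.40 to 0.15 for GFP. MUC13 had 357 and 345 CPM with and 330 and 342 CPM without doxycycline in the M303 line, which is 0.06 on the log2 scale (SE 0.07, 95% interval -0.08 to 0.20). In the GFP line it had 340 and 328 CPM with doxycycline, against 346 and 352 CPM without it, a log2 fold change of -0.06 (SE 0.07, 95% interval -0.21 to 0.08).

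The remaining gel-forming genes had log2 fold changes of 0.08 (MUC5AC), 0.29 (MUC5B) and 0.18 (MUC6) for M303 induction. For GFP induction the values were -0.16 (MUC5AC), -0.14 (MUC5B) and -0.17 (MUC6). Of the transmembrane genes, MUC17 had 0.40 for M303 (SE 0.27) and -0.15 for GFP induction (SE 0.27), and MUC20 had 0.12 and -0.18 in the same order (SE 0.17 and 0.18). None of these passed the test.

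**Figure D3:**
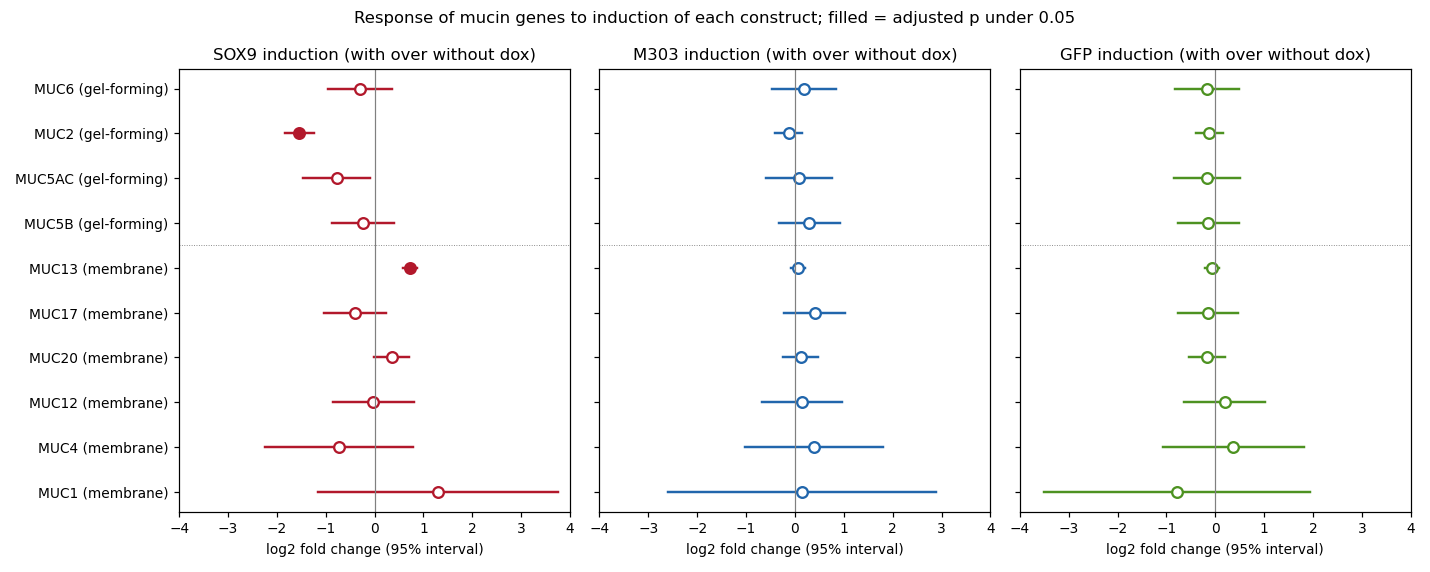
Log2 fold change of each mucin gene, with over without doxycycline, for induction of SOX9, M303 and GFP. Lines are 95% intervals computed from the F statistic of the edgeR test. Filled points passed the test; these are MUC2 and MUC13 for SOX9 induction, and no point for M303 or GFP induction.

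The difference between inductions was tested directly, as an interaction term. These differences and the inductions share the libraries of the SOX9 line, so they are not independent of each other. The response of MUC2 to SOX9 differed from its response to GFP by -1.42 on the log2 scale (SE 0.19, 95% interval -1.82 to -1.02, edgeR adjusted p = 4.51e-04). It differed from the response to M303 by -1.42 (SE 0.19, adjusted p = 8.16e-04). The response of MUC13 to SOX9 exceeded that to GFP by 0.79 (SE 0.10, adjusted p = 7.68e-05) and that to M303 by 0.67 (SE 0.10, adjusted p = 8.16e-04). In each contrast 2 of 10 members were called, where 0.895% of all genes were called against GFP and 0.489% against M303. MUC5AC had a difference of -0.61 (SE 0.41) against GFP and of -0.86 (SE 0.41) against M303, neither called (adjusted p = 0.742 and 0.770). MUC17 had -0.81 (SE 0.39) against M303 and -0.25 (SE 0.39) against GFP (adjusted p = 0.766 and 0.908). For MUC20 the difference was 0.53 against GFP (SE 0.25, 95% interval 0.01 to 1.04, edgeR adjusted p = 0.533). Against M303 it was 0.24 (SE 0.25, adjusted p = 0.930), and neither was called.

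M303 and GFP induction were also set against each other, with 0 of 10 members called and 0.00549% of all genes. The difference was -0.0012 for MUC2 (95% interval -0.40 to 0.39) and 0.12 for MUC13 (95% interval -0.08 to 0.33). Without doxycycline, the SOX9 line against the GFP line gave 0 of 10 members and 0.0% of all genes, and the M303 line against the GFP line 0 of 10 and 0.00549%. DESeq2 called 2 genes and 1 gene in these. Of 18219 genes tested, 866 and 1110 had an unadjusted p under 0.05, with 0 members among them. At such shares few of any 10 genes would be among them. In both contrasts 9 of the 10 members had negative values, all 4 gel-forming and 5 of the 6 transmembrane genes. The gel-forming values ran from -0.36 to -0.20 for the uninduced SOX9 line and from -0.31 to -0.20 for the uninduced M303 line, and MUC17 had -0.47 and -0.42. Both contrasts share the GFP libraries. MUC2 had -0.20 (SE 0.13) in either, a size well below its SOX9 response of -1.54.

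The gel-forming and transmembrane classes were then set side by side as summed CPM per kilobase, as a description with no test. In the SOX9 line the gel-forming sum was 32.2 ± 7.27 CPM per kilobase with and 43.6 ± 4.02 without doxycycline (SD, n = 2 each). The transmembrane sum was 163 ± 3.18 with and 100 ± 5.59 without it. The gel-forming share of the mucin sum was 14.02% and 18.8% in the induced SOX9 libraries, against 28.2% and 32.6% in the uninduced ones. Both induced libraries lay below the other 10, which held 28.2% to 37.1%. These sums rest on few genes, since MUC13 alone made up 82.0% ± 3.56 of the mucin sum with and 67.3% ± 3.22 without doxycycline. The sums hold the 10 members only. The transmembrane mucin gene MUC3A, at 88.2 CPM with and 83.3 CPM without doxycycline in the SOX9 line, is not in them. These MUC3A values are not scaled by length and cannot be set beside the sums. Within the gel-forming sum, MUC2 took 6.05% and 5.25% with and 12.2% and 11.8% without doxycycline, while MUC6 took 71.0% ± 0.86 and 64.2% ± 0.92 in the same order.

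The gel-forming genes and MUC17 varied together between libraries of a group, which the sums above carry as spread. MUC6 had 239 and 338 CPM in the M303 line with doxycycline, 322 and 218 CPM in the GFP line with doxycycline, and 253 and 353 CPM in the GFP line without it. In each of these groups MUC5AC, MUC5B and MUC17 were higher in the library with the higher MUC6. MUC13 did not follow, with at most 0.12 log2 units between the libraries of any group. Over the 10 libraries without induced SOX9, Pearson's r of log2 CPM was 0.96 for MUC5AC with MUC6, 0.93 for MUC5B with MUC17 and 0.92 for MUC6 with MUC17. For MUC13 it lay between -0.02 with MUC2 and 0.33 with MUC17. These points share groups and library scaling, so they are given with no test. What moves these genes together between libraries was not tested.

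Each gene was also set beside MUC6 of the same library as a ratio, a choice made after the values were seen. For MUC2 the ratio spread about as widely over the other 10 libraries as the CPM itself. MUC2 stood at 0.127 and 0.112 of the MUC6 CPM in the SOX9 line with doxycycline, against 0.281 and 0.279 without it. The other 10 libraries lay between 0.200 and 0.287. For MUC5AC the ratios were 0.249 and 0.273 with doxycycline, against 0.345 and 0.384 without it, and the other 10 libraries lay between 0.335 and 0.384. Both genes were therefore lower relative to MUC6 in the induced SOX9 libraries than in any other library, while by the test over all genes only MUC2 was called. The MUC5B ratios of 0.422 and 0.472 with doxycycline were within the range of the other 10, from 0.386 to 0.484. For MUC17 they were 0.118 and 0.135, against 0.144 and 0.131 without doxycycline, so 1 of the 2 induced libraries lay within the range of the other 10, from 0.129 to 0.162.

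**Figure D4:**
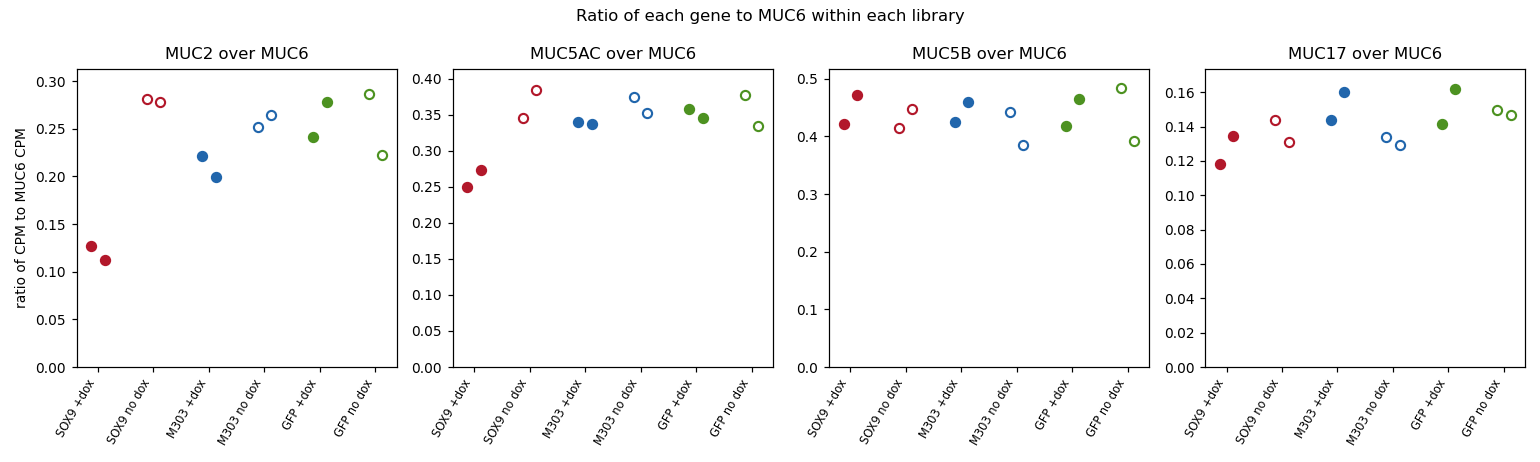
CPM of MUC2, MUC5AC, MUC5B and MUC17 divided by the CPM of MUC6 in the same library, with 1 point per library (filled with, open without doxycycline). The induced SOX9 points are below all others for MUC2, at 0.127 and 0.112, and for MUC5AC, at 0.249 and 0.273, and lie among the others for MUC5B.

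Genes that act with mucins were counted from lists of known roles. Of 10 transcription factors of goblet cells and mucin genes, all tested, 6 fell and 0 rose on SOX9 induction (1.16% of all genes were lower), with a median log2 fold change of -0.59. CREB3L1, a membrane-bound factor of the secretory pathway, had 42.8 ± 1.23 CPM with and 91.9 ± 8.997 CPM without doxycycline in the SOX9 line (log2 fold change -1.10, edgeR adjusted p = 1.30e-07). ATOH1, which sets secretory cell fate, had 14.9 ± 0.43 and 35.6 ± 3.16 CPM in the same order (-1.25, adjusted p = 5.84e-07). SPDEF, which drives goblet cell maturation, had 9.37 ± 0.74 and 21.7 ± 2.27 CPM (-1.21, adjusted p = 1.72e-05). Against GFP induction 4 of these 10 were lower and against M303 induction 3.

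Of 14 folding, granule and mucus partner genes, all tested, 7 fell and 0 rose on SOX9 induction (1.16% of all genes were lower), with a median of -0.60. The number lower was 4 without replicate 1 and 3 without replicate 2 of induced SOX9. The called members not described singly here, AGR3, TFF2, ERN2 and TFF3, each lost their call on omission of at least 1 library. AGR2, a disulfide isomerase that MUC2 folding needs in mice, had 626 ± 10.5 CPM with and 1130 ± 37.4 CPM without doxycycline (log2 fold change -0.85, edgeR adjusted p = 1.01e-07). ZG16, a lectin stored in goblet granules, stood at 4.06 ± 0.80 and 14.1 ± 2.38 CPM in the same order (-1.79, adjusted p = 7.56e-06). TFF1, a trefoil peptide secreted with mucins, had 25.6 ± 4.89 and 46.3 ± 6.20 CPM (-0.85, adjusted p = 9.43e-04). CLCA1, a secreted goblet cell protein named here after its values were seen, averaged 0.895 ± 0.111 and 0.0535 ± 0.0757 CPM. Its log2 fold change of 3.96 (SE 1.35), opposite to the called genes of this list, was not called (edgeR adjusted p = 0.144). In the SOX9 line only its level with doxycycline was above the low-count filter. Its place among the tested genes may therefore depend on its level there. Against GFP induction 3 of the 14 were lower and against M303 induction 1.

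The sugar-adding enzymes moved in both directions. Of 30 O-glycosylation genes listed 28 were tested, 3 rose and 5 fell on SOX9 induction (1.81% of all genes were higher and 1.16% lower), and the median of -0.03 was near that of all genes. Without either induced SOX9 library 1 was higher and 1 lower. Without replicate 1 of uninduced SOX9 1 was higher, and without its replicate 2 the number lower was 2. ST3GAL4, a sialyltransferase, had 60.3 ± 0.28 CPM with and 38.0 ± 1.05 CPM without doxycycline (log2 fold change 0.67, edgeR adjusted p = 2.61e-04). ST6GALNAC1, which makes the sialyl-Tn antigen, had 197 ± 5.92 and 268 ± 8.27 CPM in the same order (-0.44, adjusted p = 3.85e-04). GCNT3, which builds branched O-glycan cores, had 118 ± 0.28 and 153 ± 2.38 CPM (-0.38, adjusted p = 0.00595). The call of GCNT3 was lost without 2 single libraries, and its highest adjusted p was 0.0811, without replicate 1 of induced SOX9. Against GFP induction 1 of the 28 was higher and 1 lower, and against M303 induction 0 were higher and 1 lower.

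Of 8 partners and cleaving enzymes of transmembrane mucins, all tested, 1 rose and 1 fell on SOX9 induction (1.81% of all genes were higher and 1.16% lower). Against GFP induction 0 of the 8 were higher and 1 lower, and against M303 induction also 0 and 1, LGALS3 in each. LGALS3, a galectin that binds mucin glycans, had 267 ± 0.65 CPM with and 427 ± 1.10 CPM without doxycycline (log2 fold change -0.68, edgeR adjusted p = 5.70e-06). ADAM10, a membrane protease, had 283 ± 10.5 and 228 ± 17.2 CPM (0.31, adjusted p = 0.0322), but this call was lost on omission of any 1 of 3 libraries, at most to an adjusted p of 0.343 (omitting replicate 1 of induced SOX9). Of 12 further mucin genes 5 were tested and 0 were called. MUC3A, a transmembrane mucin of the intestine, had 88.2 ± 0.74 CPM with and 83.3 ± 4.15 CPM without doxycycline. M303 induction and GFP induction called 0 genes in each of these 5 lists. For the folding, granule and mucus partner genes the median log2 fold change was -0.27 for M303 and 0.025 for GFP induction. For the transcription factors it was -0.17 and -0.065 in the same order. For the other lists it lay between -0.071 and 0.057, beside 0.0007 (M303) and 0.0005 (GFP) over all genes. These list medians were not tested. Of the 10 epithelial markers 5 were also lower on SOX9 induction (LGALS4, KRT20, CDX2, CDX1 and VIL1), beside 1.16% of all genes. Only 2 were lower without replicate 1 of induced SOX9 or without replicate 2 of uninduced SOX9, and 3 without replicate 2 of induced SOX9. The sum of all 10 was 10670 and 10710 CPM in the SOX9 line with doxycycline, against 11530 and 13070 CPM without it, and 11640 to 13090 CPM in the M303 and GFP lines. The part of these markers in the mucin values was not tested.

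**Figure D5:**
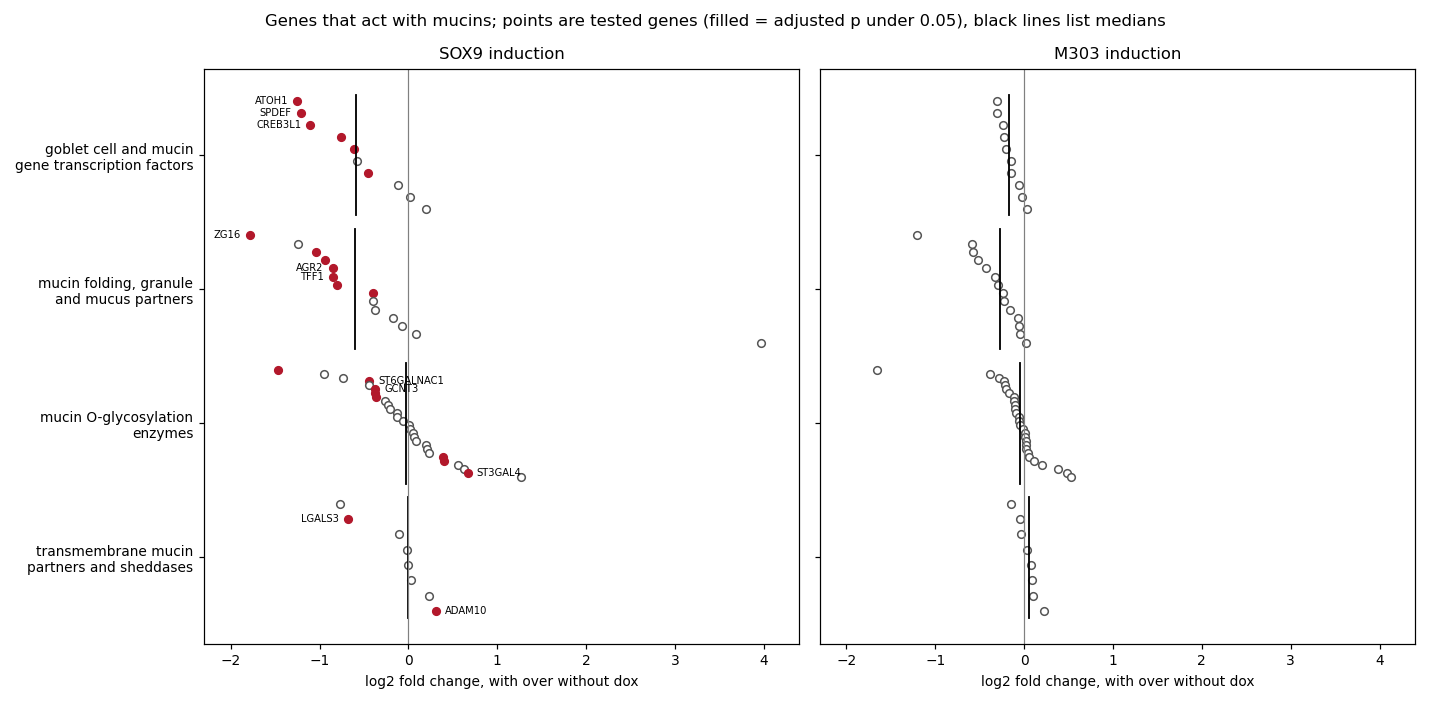
Log2 fold change, with over without doxycycline, of each tested gene in 4 lists of genes that act with mucins, for SOX9 and M303 induction. Filled points passed the test, the labelled ones are named in the text, and black lines are list medians, -0.59 for the transcription factors and -0.60 for the folding and granule genes on SOX9 induction.

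The genes whose log2 CPM followed MUC2 most closely over the 12 libraries, among 11758 searched, were ATOH1 (Pearson's r 0.971), CREB3L1 (0.970), FCGBP (0.969), TMEM200A (0.968) and SPDEF (0.968). FCGBP, a large protein of colonic mucus, had 104 ± 29.4 CPM with and 245 ± 61.1 CPM without doxycycline in the SOX9 line, not called (edgeR adjusted p = 0.0914). The closest to MUC13 were SLC6A14, an amino acid transporter (0.986), RELL1 (0.986), NEDD9, an adhesion scaffold (0.984), IVNS1ABP (0.982) and ALCAM, an adhesion molecule (0.982). SLC6A14 had 66.3 ± 4.43 CPM with and 19.5 ± 2.97 CPM without doxycycline, and NEDD9 had 44.2 ± 1.53 and 12.8 ± 0.65 CPM in the same order. These correlations take in the induced SOX9 libraries and share library scaling, and are a description only.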

How the data were processed

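The submitters' processing notes name STAR 2.7.0a and the build hg38. The deposited unit is the raw count per gene. Per the file headers, it was made with featureCounts 2.0.1 and Ensembl release 101. The recorded command sets no paired-end, strand, multi-mapping or overlap option, so mates were counted singly, reads aligned to several places or shared by genes were not counted, and genes on opposite strands cannot be separated. Libraries were made from oligo(dT)-selected mRNA and read as 150-bp pairs, per the labels' protocols.

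From the deposited counts, 12 libraries in 6 groups entered 1 robust quasi-likelihood fit in edgeR 4.0.16 (R 4.3.3), with TMM factors of 0.981 to 1.02, filterByExpr (18219 genes) and 6 residual degrees of freedom. The biological coefficient of variation was 10.6%. The threshold for a call was 0.05 on p-values adjusted over all genes (Benjamini-Hochberg). CPM used TMM-scaled totals. A symbol was found for 69.3% of the genes, 0 entries named no gene and 0 sample columns were unused. There were 8 comparisons, and DESeq2 1.42.0, other scalings, no filter, the compared groups alone, a replicate block and omission of each library were alternatives. The named genes are the members, the 3 called genes of each list with the smallest adjusted p and the 5 genes most correlated with MUC2 and with MUC13, with SOX9 as the check of the labels. Outside this rule, AGR3, TFF2, ERN2, TFF3, CLCA1, CDX1, VIL1, MUC3A, MUC19, MUC21, MUCL1, CD164 and PARM1 were named after their values were seen. The members and lists were chosen with earlier results of these data known.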

Additional observations from a re-analysis of the deposited data

Results flagged for a closer look

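Groups held 2 libraries, too few to look for single outlying libraries. The 4 results given here were taken up because the response to wild-type SOX9 differed from the response to another construct in the test of the difference itself. For MUC2 the difference was -1.42 against GFP induction and -1.42 against M303 induction on the log2 scale. For MUC13 it was 0.79 against GFP induction and 0.67 against M303 induction. The constructs sit in separate lines, so a difference between constructs and one between lines cannot be told apart.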

How the results depend on the processing

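For SOX9 induction 2 mucins were called in the reported fit and in 17 of 18 alternatives, and 3 with the compared groups alone. In the other 7 comparisons the number called was the same in all 18. Of 1429 refits of a member's log2 fold change 1428 kept their side of the threshold, 1 gained a call (MUC5AC for SOX9 induction with the compared groups alone, adjusted p = 0.0334), 0 lost one and 0 called values reversed. Uncalled values changed sign in 67 refits. In the reported fit every uncalled value had an edgeR adjusted p of at least 0.295 (MUC5AC for SOX9 induction). Many refits also left out a library outside the groups compared. Most refits therefore had little room to change side. Replicate numbers were not used to pair the samples in the reported fit. Within a line, same-numbered deviations were weakly correlated (0.096, -0.098 and -0.086 for the SOX9, M303 and GFP lines). Between groups of different lines they ran from -0.352 (uninduced SOX9 with induced GFP) to 0.282 (uninduced SOX9 with induced M303). MUC2, MUC5AC, MUC6 and MUC17 were higher in replicate 2 in every group except induced GFP, and the source of this was not tested. With the replicate block 2 members were called for SOX9 induction, MUC2 and MUC13. Of the 60 group means of CPM 0 moved beyond their spread with DESeq2 size factors. In the comparison of gel-forming against transmembrane mucins, the gel-forming share differed by -13.99 percentage points, with against without doxycycline in the SOX9 line, and by -16.4 to -11.6 points without 1 library of that line, an alternative chosen after seeing the data. For MUC5AC the adjusted p was 0.702 on omission of replicate 1 of induced SOX9 and 0.719 on omission of replicate 2 of uninduced SOX9.

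Counts over all genes moved more. For SOX9 induction 541 genes were called, but 270 and 231 without replicate 1 or 2 of induced SOX9 and 301 without replicate 2 of uninduced SOX9. Against GFP induction 163 were called, but 270 with no filter and 108 and 95 without replicate 1 or 2 of induced SOX9. Against M303 induction 89 were called, but 147 with no filter and 57 without replicate 2 of induced SOX9. For M303 induction (1 gene) the count was 9 with no filter, 2 with DESeq2 or without either induced GFP library and 3 with the compared groups alone. For GFP induction (0 genes) it was 4 with no filter, 2 with DESeq2 and 9 without replicate 1 of uninduced GFP. For M303 against GFP induction (1 gene) it was 11 with no filter and 12 without replicate 1 of uninduced GFP. For the uninduced SOX9 line (0 genes) it was 17 with no filter, 2 with DESeq2, 1 with the compared groups alone or without either induced GFP library, and 39 without replicate 1 of uninduced GFP. For the uninduced M303 line (1 gene) it was 22 with no filter, 0 without either uninduced M303 library or replicate 2 of uninduced GFP, and 56 without replicate 1 of uninduced GFP. The cause was not tested. Depth limits MUC1 and MUC4, which had at most 24 and 43 counts in any library.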

Other observations

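Of 12 further mucin genes 7 were not tested, and MUC21 and MUCL1 had 0 counts in all 12 libraries. MUC19, a gel-forming mucin gene, averaged 0.306 ± 0.255 CPM with and 0 CPM without doxycycline in the SOX9 line (edgeR adjusted p = 0.110, SD, n = 2 each). In the M303 line it averaged 0.524 CPM with and 0 CPM without doxycycline, and in the GFP line 0.0264 and 0.121 CPM in the same order. Its highest count in any library was 24. Only in the induced SOX9 and induced M303 groups was the MUC19 mean above the low-count filter of about 0.277 CPM. Its place among the tested genes may therefore depend on its level there. CD164, a membrane sialomucin, had 462 ± 14.6 CPM with and 422 ± 20.4 CPM without doxycycline in the SOX9 line, and PARM1, another mucin-like membrane protein, 131 ± 2.52 and 122 ± 3.67 CPM, neither called (adjusted p = 0.438 and 0.664).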
